A study of Mus musculus with 6 samples.

Results

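The 10 genes described here make and sense prostaglandins and leukotrienes, the lipid mediators derived from arachidonic acid. They were chosen by name from the 20649 genes of the count matrix, as Ptgs1, Ptgs2, Ptges, Hpgds and Tbxas1 for the prostanoid branch (5 genes), Alox5, Alox5ap, Ltc4s and Lta4h for the leukotriene branch (4 genes) and Ptger4 for a receptor (1 gene). All 10 were detected, from 922 unique molecular identifiers (UMIs) for Ltc4s to 107067 for Ptgs2, so each passed the minimum of 100 UMIs used for comparisons across genes. The question was where in the tumor's myeloid cells each branch and its receptors are transcribed.

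The cells came from subcutaneous CT26 tumors, a mouse colon carcinoma line, grown in the right flank of BALB/c mice. Tumors of the exoASO-STAT6 group (n = 3) received exosomes carrying an antisense oligonucleotide against Stat6, and those of the exoASO-Scramble group (n = 3) received the same vehicle with a scrambled oligonucleotide. Every tumor was injected 3 times, on alternate days, and collected 24 hours after the last injection, and cells positive for CD45 were enriched and sequenced with a droplet chemistry that counts UMIs at the 3′ end of transcripts. All tumors were deposited in 1 matrix of 9235 barcodes whose suffixes, 3 to 8, match no tumor label, so no barcode could be given a treatment. The 2 treatments were therefore not compared, and the matrix was treated as 1 pooled sample without tests between classes.

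Each suffix was taken as a library of unknown treatment. Libraries held 867 to 2017 barcodes and 11492757 to 33902084 UMIs, with a median per barcode between 7270 (suffix 5) and 16125 (suffix 4), and 16 barcode sequences occurred in 2 suffixes. Levels are counts per 1000000 UMIs of the class (CPM) with 95% exact Poisson intervals, and shares carry 95% exact Clopper-Pearson intervals. For a count of 0 the limit given is that of 3 counts, which lies below the upper end of the exact interval. Intervals and limits cover counting error only. Because UMIs were not divided by transcript length, a level is compared for a gene across classes. Shares of summed UMIs describe counts and not the relative amounts of different genes.

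Prostaglandin synthesis begins when a phospholipase frees arachidonic acid from membranes and a cyclooxygenase, the constitutive Ptgs1 or the inducible Ptgs2, converts it to prostaglandin H2. Terminal enzymes then turn this intermediate into prostaglandin E2 (Ptges), prostaglandin D2 (Hpgds) or thromboxane A2 (Tbxas1). In the other branch 5-lipoxygenase (Alox5), helped by its activating protein at the nuclear envelope (Alox5ap), makes leukotriene A4, which Lta4h converts to the neutrophil attractant leukotriene B4 and Ltc4s to leukotriene C4, the parent of the cysteinyl leukotrienes. Ptger4 is the EP4 receptor, through which prostaglandin E2 raises cyclic AMP in immune cells. In tumors prostaglandin E2 is best known for damping dendritic cell and T cell responses, and mast cells and basophils are classical sources of leukotrienes and prostaglandin D2.

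Promoter sequences are shown for the 4 members whose levels were at least 2-fold apart between barcodes of an early monocyte gate and of a C1q-high gate: Ptgs2 and Ptges, which were higher in the former, and Hpgds and Alox5, which were higher in C1q-high barcodes. They run from 250 bases before to 50 bases after the RefSeq gene start (GRCm38.p6), at chr1:150099781-150100080 on the plus strand for Ptgs2, and on the minus strand at chr2:30903248-30903547 for Ptges, chr6:65144681-65144980 for Hpgds and chr6:116461129-116461428 for Alox5, and are written 5′ to 3′ along the gene. Capitals mark matches on either strand to the TATA box TATAAA, the E-box CACGTG, the cyclic AMP response half-site TGACG, the PU.1 core GAGGAA and a kappaB-like pattern GGGNNNNNCC.
Ptgs2 promoter: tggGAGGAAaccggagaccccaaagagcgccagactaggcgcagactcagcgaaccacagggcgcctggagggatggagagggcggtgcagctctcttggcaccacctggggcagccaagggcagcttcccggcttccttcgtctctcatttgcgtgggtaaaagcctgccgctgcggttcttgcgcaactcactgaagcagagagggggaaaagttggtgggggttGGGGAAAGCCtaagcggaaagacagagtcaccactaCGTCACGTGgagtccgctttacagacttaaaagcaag
Ptges promoter: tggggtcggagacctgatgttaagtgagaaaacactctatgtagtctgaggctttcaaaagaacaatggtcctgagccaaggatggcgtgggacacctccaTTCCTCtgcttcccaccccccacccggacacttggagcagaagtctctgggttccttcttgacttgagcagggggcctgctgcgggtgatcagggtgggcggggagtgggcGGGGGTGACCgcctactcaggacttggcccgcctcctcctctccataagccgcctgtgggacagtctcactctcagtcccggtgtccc
Hpgds promoter: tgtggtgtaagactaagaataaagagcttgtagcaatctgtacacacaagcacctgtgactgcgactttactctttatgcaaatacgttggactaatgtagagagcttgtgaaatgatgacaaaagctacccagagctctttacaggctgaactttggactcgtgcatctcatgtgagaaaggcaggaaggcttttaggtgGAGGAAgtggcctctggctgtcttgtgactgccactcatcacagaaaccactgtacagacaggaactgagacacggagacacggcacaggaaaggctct
Alox5 promoter: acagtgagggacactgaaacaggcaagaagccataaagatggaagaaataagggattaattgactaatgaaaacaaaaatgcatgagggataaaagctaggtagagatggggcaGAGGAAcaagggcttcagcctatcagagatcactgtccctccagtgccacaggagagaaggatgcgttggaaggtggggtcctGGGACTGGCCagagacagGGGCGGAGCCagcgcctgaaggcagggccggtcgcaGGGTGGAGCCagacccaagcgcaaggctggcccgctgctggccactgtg

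Among these windows the Ptgs2 promoter was the only one with an E-box and a cyclic AMP half-site (1 of each), which share bases in the stretch CGTCACGTG, with the half-site on the minus strand. An E-box was present in 7.15% and the half-site in 20.8% of all 32851 promoters of the same length. Each of the 4 windows held 1 PU.1 core, against 28.3% of all promoters with a match, and the kappaB-like pattern was found once in Ptgs2, once in Ptges and 3 times in Alox5 but not in Hpgds, against 50.8% of all promoters. No TATA box was found in the 4 windows (13.6% of all promoters). The GC box GGGCGG was matched in Ptgs2, Ptges and Alox5 (35.7% of all promoters), the C/EBP-like pattern TTNNGNAA in Ptgs2, Ptges and Hpgds (40.7%), and the CCAAT box CCAAT (37.4%) and the AP-1 pattern TGANTCA (7.81%) in none of them. These matches describe letters in the windows and are not evidence of binding. GC content was 59.3% for Ptgs2, 60% for Ptges, 46.7% for Hpgds and 55.7% for Alox5.

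Barcodes were sorted into 7 classes by raw UMIs of gate genes. The S100a9 gate (at least 5 UMIs, meant for neutrophils) held 1049 barcodes, the early monocyte gate (Csf1r with Vcan or Hp) 2724 and the Ly6c2 gate (at least 2 UMIs) 3591. The C1q-high gate (at least 60 C1qa, C1qb and C1qc UMIs per 10000) held 3032 and the Mmp12 gate (Mmp12 with Csf1r) 2010. The Flt3 gate (at least 1 UMI, meant for dendritic cells) held 344 and the Mcpt8 gate (at least 1 UMI, meant for basophils) 90. The gates overlap: 3865 barcodes passed 2 or more of them and 1922 passed none, and barcodes that passed only 1 gate are called exclusive. Class medians of 12618 to 19067 UMIs per barcode exceeded the 11846 of all barcodes. A lymphoid reference of 616 barcodes, with T, NK or B cell markers and without Csf1r, served as a comparison for free RNA. It is not free of other signal: 232 of its barcodes also passed the Ly6c2 gate and 25 the Mcpt8 gate, and it held mast cell transcripts (Cma1 at 107 CPM).

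Marker lists were read against the gate names. The Flt3 gate held its markers, with 10 of 10 dendritic genes at least 2-fold above the other barcodes, and C1q-high barcodes had the highest summed macrophage list (5615 CPM). The Flt3 gate also held macrophage and monocyte transcripts, with Apoe at 1181 CPM and Fn1 at 220, against 93.9 and 47.7 in the lymphoid reference. The S100a9 gate did not hold neutrophils alone: 9 of 10 neutrophil markers were at least 2-fold higher (2847 CPM summed, 1773 to 3546 over suffixes), but the macrophage list reached 4049 CPM and 957 of the 1049 barcodes had Csf1r. The Mcpt8 gate had 11 of 11 basophil and mast cell markers at least 2-fold higher (1777 CPM summed, 397 to 12409 over suffixes). Mast cell transcripts were among them, with Cma1 at 278 CPM (1247 in exclusive barcodes), so the gate does not separate basophils from mast cells. The lymphocyte list stood at 5360 CPM there, with 4 of its 12 genes at least 2-fold above the other barcodes and 3 at 0. Gzma alone gave 4669 CPM (5044 in the lymphoid reference). Ncr1 was at 161 CPM against 273 in that reference, Cd3g at 200 against 669 and Cd3d at 83.8 against 395. Exclusive Ly6c2 barcodes also carried lymphocyte markers, at 2353 CPM, of which Gzma gave 1632. The early monocyte gate held both kinds of marker, with the macrophage list at 3725 CPM and the monocyte list at 3293. Its exclusive barcodes had the macrophage list at 3732 CPM, against 6056 in exclusive C1q-high barcodes. Mrc1 (1007 against 791 CPM) was the only gene of that list higher in them than in exclusive C1q-high barcodes. The Mmp12 gate leaned to macrophage markers (4351 against 1751 CPM). The classes are therefore called by their gates, early monocyte being the name of a gate and not an identified cell type, and the part of the other cell types in the values below was not tested except where values without Csf1r are given.

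Ptgs2, which encodes the inducible cyclooxygenase, was highest in the early monocyte, S100a9, Ly6c2 and Mmp12 gates and lower in C1q-high and Flt3 barcodes. Its level was 1057 CPM (1048 to 1066) in early monocytes, 969 in the S100a9 gate, 919 in the Ly6c2 gate, 862 in the Mmp12 gate, 477 in the Flt3 gate, 453 (448 to 459) in C1q-high and 373 in Mcpt8 barcodes, against 115 in the lymphoid reference. Early monocytes of suffixes 3 to 8 stood at 1220, 859, 968, 1150, 991 and 1146 CPM, and C1q-high barcodes at 552, 503, 307, 475, 457 and 398. Every early monocyte value therefore lay above every C1q-high value. In the descending order of classes each neighboring pair differed beyond its counting interval, but only the step from Mmp12 to Flt3 barcodes (1.81-fold) held in all 6 suffixes. The lead of early monocytes over the S100a9 gate was 1.09-fold, in 5 of 6 suffixes. The place of Mcpt8 barcodes was not settled, with 176 to 1041 CPM over suffixes.

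The levels of the 2 smallest gates depended on which barcodes were kept. The 40 Mcpt8 barcodes without lymphocyte transcripts stood at 971 CPM for Ptgs2, above the C1q-high (490) and Flt3 barcodes (484) filtered the same way, whereas the 57 Mcpt8 barcodes without Csf1r stood at 192. Flt3 barcodes without Csf1r, chosen after values were seen, stood at 231 CPM for Ptgs2, 3.14 for Hpgds (33.0 in the whole gate), 3.14 for Alox5 (7.61) and 0.784 for Ptgs1 (7.34), but at 99.6 for Ptger4 (55.2). Values of both gates below are therefore those of mixed barcodes.

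The lead of early monocytes in Ptgs2 turned with the composition of the S100a9 gate. In the 47 S100a9 barcodes that had neither Csf1r nor C1q, a set chosen after values were seen, Ptgs2 reached 1977 CPM (1843 to 2118) and exceeded the other barcodes of its suffix in 6 of 6 suffixes, although 3 of the suffixes contributed 2 or 3 barcodes each. Ltb4r1, the high-affinity receptor for leukotriene B4, stood at 204 CPM in that set, and Alox5 had 0 UMIs, which allows up to 7.37 CPM.

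Ptges, the inducible synthase that completes prostaglandin E2, was rare and shared part of the pattern of Ptgs2. It was at 9.64 CPM (8.89 to 10.4) in the Ly6c2 gate, 9.54 in early monocytes, 8.07 in the Mmp12 gate, 6.29 in the S100a9 gate, 5.52 in Mcpt8 barcodes (11 UMIs), 3.01 (2.59 to 3.47) in C1q-high and 2.99 in the Flt3 gate (22 UMIs). The lymphoid reference stood at 6.22 CPM, above Mcpt8, C1q-high and Flt3 barcodes and close to the S100a9 gate. Levels differed widely between suffixes, with 6.14, 3.81, 4.33, 11.8, 11.7 and 12.1 CPM in the early monocytes of suffixes 3 to 8, so the first 3 suffixes were low and the last 3 high. The top pair of classes did not differ beyond counting error, while early monocytes exceeded the Mmp12 gate by 1.18-fold in 4 of 6 suffixes.

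Hpgds, the hematopoietic synthase of prostaglandin D2, was highest where C1q was high. C1q-high barcodes stood at 76.5 CPM (74.4 to 78.7), with 73.0, 69.4, 80.7, 83.1, 71.6 and 88.5 CPM in suffixes 3 to 8. Next came the S100a9 gate at 49.3 and the Mmp12 gate at 46.4, then early monocytes at 33.8, the Flt3 gate at 33.0, the Ly6c2 gate at 32.8 and Mcpt8 barcodes at 22.6 CPM, with 5.04 in the lymphoid reference. The 1.55-fold step from C1q-high to the S100a9 gate held in 6 of 6 suffixes, and every C1q-high value lay above every S100a9 value, of which the highest was 56.8 CPM. S100a9 and Mmp12 barcodes did not differ beyond counting error (1.06-fold), although the S100a9 gate was the higher in 6 of 6 suffixes. Among exclusive barcodes the S100a9 gate was 1.58-fold higher, beyond counting error but in only 3 of 6. Exclusive S100a9 barcodes also carried mast cell transcripts (Cma1 at 172 CPM against 1.16 in exclusive Mmp12 barcodes), whose part was not tested. Neighbors in the order early monocyte, Flt3 and Ly6c2 did not differ beyond counting error. Exclusive barcodes spread the classes further, from 87.3 CPM in C1q-high to 7.65 in the Flt3 gate (11.4-fold).

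Tbxas1, thromboxane synthase, differed little over 6 of the gates, the lowest being Ly6c2 (59.3 CPM) and Flt3 (58.2), and was low in Mcpt8 barcodes. It ranged from 75.9 CPM (73.7 to 78.1) in C1q-high barcodes through 66.9 in early monocytes to 36.6 in Mcpt8 barcodes, with 2.86 in the lymphoid reference. The ends differed by 2.07-fold, in 6 of 6 suffixes. The lead of C1q-high over early monocytes was only 1.13-fold but was seen in 6 of 6 suffixes. Exclusive Mcpt8 barcodes held a single Tbxas1 UMI (2.27 CPM), against 83.2 CPM in exclusive C1q-high barcodes. Ptgs1, the constitutive cyclooxygenase, varied little. It lay between 7.21 and 10.0 CPM in all 7 classes, no neighboring pair differed beyond counting error, and the lymphoid reference was at 4.54 CPM. Neither did the highest and lowest class (1.39-fold, higher in 3 of 6 suffixes), but the highest, the Mcpt8 gate, rested on 20 UMIs. C1q-high barcodes, at 9.22 CPM (8.48 to 10.0), and the Ly6c2 gate, at 7.21 (6.56 to 7.90), had intervals that did not overlap.

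**Figure D1:**
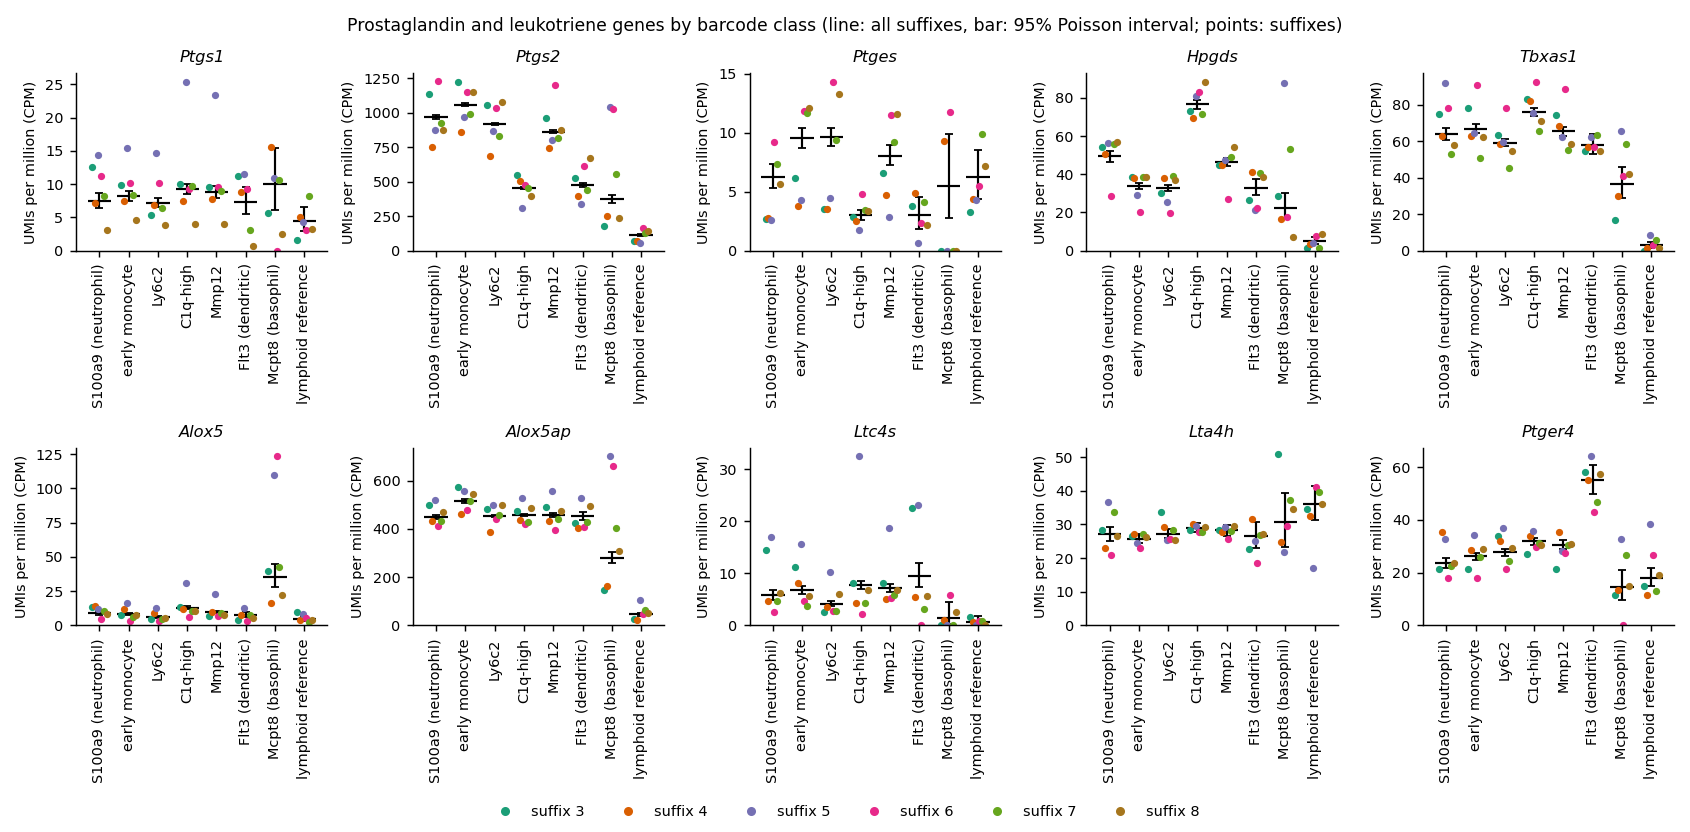
CPM (linear axis from 0) of the 10 genes in the 7 gated classes and the lymphoid reference. Black lines are all suffixes summed with 95% Poisson intervals, colored points the suffixes; Hpgds is highest in C1q-high barcodes (76.5), Ptger4 in the Flt3 gate (55.2) and Alox5 in the Mcpt8 gate (35.6), while Lta4h and Ptgs1 are nearly level.

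In the leukotriene branch Alox5, the 5-lipoxygenase itself, was highest in the Mcpt8 gate at 35.6 CPM (27.8 to 44.9; 71 UMIs). Suffixes 3 to 8 gave 39.7, 16.6, 110, 124, 42.5 and 22.3 CPM there, a wide spread from 8 to 25 barcodes each. C1q-high barcodes followed at 12.9 CPM (12.0 to 13.8), 2.77-fold lower, and the Mcpt8 gate exceeded them within each of the 6 suffixes, although the 2 ranges overlap because C1q-high barcodes of suffix 5 reached 30.8 CPM. The lowest class was the Ly6c2 gate at 5.92, close to the 4.70 of the lymphoid reference. Exclusive Mcpt8 barcodes (39) stood at 81.6 CPM.

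Alox5ap, the activating protein, was by contrast nearly level across the myeloid gates. Early monocytes stood at 515 CPM (509 to 522), with 575, 462, 557, 479, 517 and 544 in suffixes 3 to 8, and C1q-high, Mmp12, Ly6c2, Flt3 and S100a9 barcodes lay between 448 and 457. Early monocytes exceeded C1q-high barcodes by 1.13-fold in 6 of 6 suffixes. The Mcpt8 gate was lower, at 280 CPM, and the lymphoid reference stood at 46.0. The place of the Mcpt8 gate depended on which barcodes were counted and how they were weighted: its 40 barcodes without lymphocyte transcripts stood at 748 CPM, and with each barcode weighing the same it stood at 716, in both settings the highest of the 7 classes.

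The enzymes that use leukotriene A4 differed less clearly. Ltc4s, the committed step to cysteinyl leukotrienes, was at 9.52 CPM (7.42 to 12.0) in the Flt3 gate, 7.76 in C1q-high, 7.17 in the Mmp12 gate, 6.73 in early monocytes, 5.79 in the S100a9 gate, 4.13 in the Ly6c2 gate, and gave 3 UMIs in Mcpt8 barcodes. The Flt3 values in suffixes 3 to 8 were 22.6, 5.37, 23.1, 0, 3.11 and 5.73 CPM, so 2 suffixes carried the lead, and without suffix 5 the Mmp12 gate was highest, at 6.05 CPM. Lta4h, which makes leukotriene B4, lay between 25.8 and 30.6 CPM in all 7 classes and at 36.1 (31.5 to 41.3) in the lymphoid reference. No neighboring pair in its order differed beyond counting error. Neither did the ends (1.19-fold), of which the higher was the Mcpt8 gate of only 90 barcodes. With shared barcodes left out, early monocytes stood at 23.2 to 26.8 CPM over suffixes and C1q-high barcodes at 27.6 to 31.0, without overlap.

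Ptger4 was highest in the Flt3 gate. The level there was 55.2 CPM (406 UMIs), with 58.4, 55.2, 64.1, 43.1, 46.7 and 57.3 in suffixes 3 to 8, while C1q-high barcodes stood at 31.8, with 27.2, 34.1, 36.0, 29.8, 31.1 and 30.4. The lowest Flt3 value lay above the highest C1q-high value. The remaining gates ranged from 30.7 CPM (Mmp12) down to 14.5 (Mcpt8), and the lymphoid reference, whose T cells are known to carry the receptor, was at 18.1. The step from Flt3 to C1q-high barcodes was 1.73-fold in 6 of 6 suffixes.

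The Flt3 gate itself was uneven. Flt3 barcodes with Ccr7 and Fscn1, genes of dendritic cells that migrate to lymph nodes, numbered 68 and carried Ptger4 at 94.7 CPM (79.3 to 112), with 85.3, 96.0, 116, 92.2, 61.3 and 109 in suffixes 3 to 8. Alox5ap was at 249 CPM in them, against 453 in the whole Flt3 gate. Flt3 barcodes with Siglech (111, plasmacytoid marker) had Ptger4 at 58.7 and Tbxa2r, the thromboxane receptor, at 20.3 CPM (14.9 to 27.1), the latter above the other barcodes in 6 of 6 suffixes, and those with Xcr1 or Clec9a (131) had Ptger4 at 43.1 CPM. These subsets were chosen after values were seen and overlap one another's suffixes, so they are given as description.

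At a common depth of 2000 UMIs per barcode the share of barcodes with a UMI followed most of these levels. Ptgs2 was found in 62.9% of early monocyte, 70.6% of S100a9 and 37.9% of C1q-high barcodes, against 5.44% of the lymphoid reference (unthinned 83.7% of early monocyte, 64.8% of C1q-high and 13.6% of reference barcodes, at median depths of 14206, 18676 and 7747 UMIs). Hpgds was found in 13.9% of C1q-high and 4.90% of early monocyte barcodes against 0.850% of the reference. For Ptger4 the shares were 10.6% of Flt3 and 6.47% of C1q-high barcodes against 3.57%, and for Alox5 16.9% (9.54 to 26.7) of Mcpt8 and 2.36% of C1q-high barcodes against 0.680%. At 5000 UMIs, however, the Alox5 shares were 7.02% (1.95 to 17.0) of 57 Mcpt8 and 5.91% (5.07 to 6.85) of C1q-high barcodes, with intervals that overlap. Alox5ap was found in 47.0% to 64.0% of barcodes in the 7 classes and in 5.61% of the reference.

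For 3 members the shares were close to or below those of the lymphoid reference. Ptgs1 was found in 0.768% to 1.89% of barcodes in the 7 classes against 1.19% in the lymphoid reference, Ptges in 0.708% of C1q-high barcodes and 0 of 341 Flt3 barcodes (which allows up to 0.880%, or 1.08% by the exact interval) against 1.02%, and Lta4h in 4.80% to 7.23% against 7.82%. At 5000 UMIs Ptgs1 stood apart in C1q-high barcodes, at 5.06% (4.28 to 5.93) against 1.90% (0.822 to 3.70), while Ptges did not, at 1.53% in C1q-high and 1.56% in Flt3 barcodes against 1.90%. No expression of Ptges is read from these shares in the C1q-high and Flt3 gates. The 361 reference barcodes outside all gates had Ptges at 5.03 CPM. At 2000 UMIs Ptges reached 1.85% (1.43 to 2.35) in the Ly6c2 gate. At 5000 UMIs it was found in 3.77% (3.14 to 4.47) there against 1.90% (0.822 to 3.70) of the reference. These intervals overlap, as did those at 1000 UMIs. Ltc4s was found in 0 of 83 Mcpt8 barcodes, which allows up to 3.61%.

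To set the classes against each other without shared cells, the 2109 early monocyte barcodes outside C1q-high were compared with the 2417 C1q-high barcodes outside the early monocyte gate. Of the 10 members 2 were at least 2-fold higher in early monocytes, where 4.78% of the 12307 genes tested were, and 2 were at least 2-fold lower, where 3.71% were. Ptgs2 stood at 1287 against 410 CPM (3.14-fold), with 1143 to 1682 (median 1228) over the suffixes of early monocytes and 306 to 524 (median 373) over those of C1q-high barcodes, without overlap. Ptges stood at 12.2 against 2.64 CPM, higher in 6 of 6 suffixes although the ranges of 5.13 to 16.6 and 1.71 to 5.35 overlapped. The C1q-high level of Ptges is not above the lymphoid reference (6.22 CPM), so the size of that difference is not read.

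The members on the other side were the prostaglandin D2 synthase and 5-lipoxygenase. Hpgds stood at 19.8 CPM in early monocytes and 81.3 in C1q-high barcodes (4.11-fold lower), with 14.0 to 23.8 and 73.2 to 97.3 over suffixes, without overlap. Alox5 stood at 5.16 against 12.3 CPM (2.39-fold lower), lower in 6 of 6 suffixes with overlapping ranges. The early monocyte level of Alox5 is close to the lymphoid reference (4.70 CPM), so the size of that difference is not read. The remaining members were closer than 2-fold: Alox5ap was 1.18-fold higher in early monocytes in 6 of 6 suffixes, while Lta4h (25.3 against 29.8 CPM) and Ptger4 (25.8 against 33.6) were lower in 6 of 6. Tbxas1 (65.0 against 77.6 CPM) was lower in 5 suffixes and level at 89.8 CPM in suffix 6. Leaving out 1 suffix at a time moved the Ptgs2 ratio between 2.83-fold (without suffix 8) and 3.49-fold (without suffix 4).

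The other genes of the pathway were taken from a list of 28 with at least 100 UMIs. Of these 3 were at least 2-fold higher in early monocytes, where 4.78% of all genes tested were, and 2 at least 2-fold lower, where 3.71% were. Ltb4r1 was higher, at 165 against 42.8 CPM (3.85-fold; suffix medians 148 and 43.5, without overlap), as was Cyp4f18, an omega-hydroxylase that inactivates leukotriene B4 (23.1 against 8.28, 2.79-fold, without overlap), and Ptgir, the prostacyclin receptor (3.21 against 1.16, 2.77-fold in 6 of 6 suffixes). Cbr1, a carbonyl reductase that acts on prostaglandin E2, was lower at 8.08 against 16.6 CPM (2.05-fold, without overlap), and Pla2g2d, a secreted phospholipase, was at 15 against 138 UMIs. Release and transport were less different: Pla2g4a, the cytosolic phospholipase that supplies both branches, stood at 82.7 against 76.3 CPM, Ptges3 at 175 against 182 and the exporter Abcc4 at 15.9 against 9.48.

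**Figure D2:**
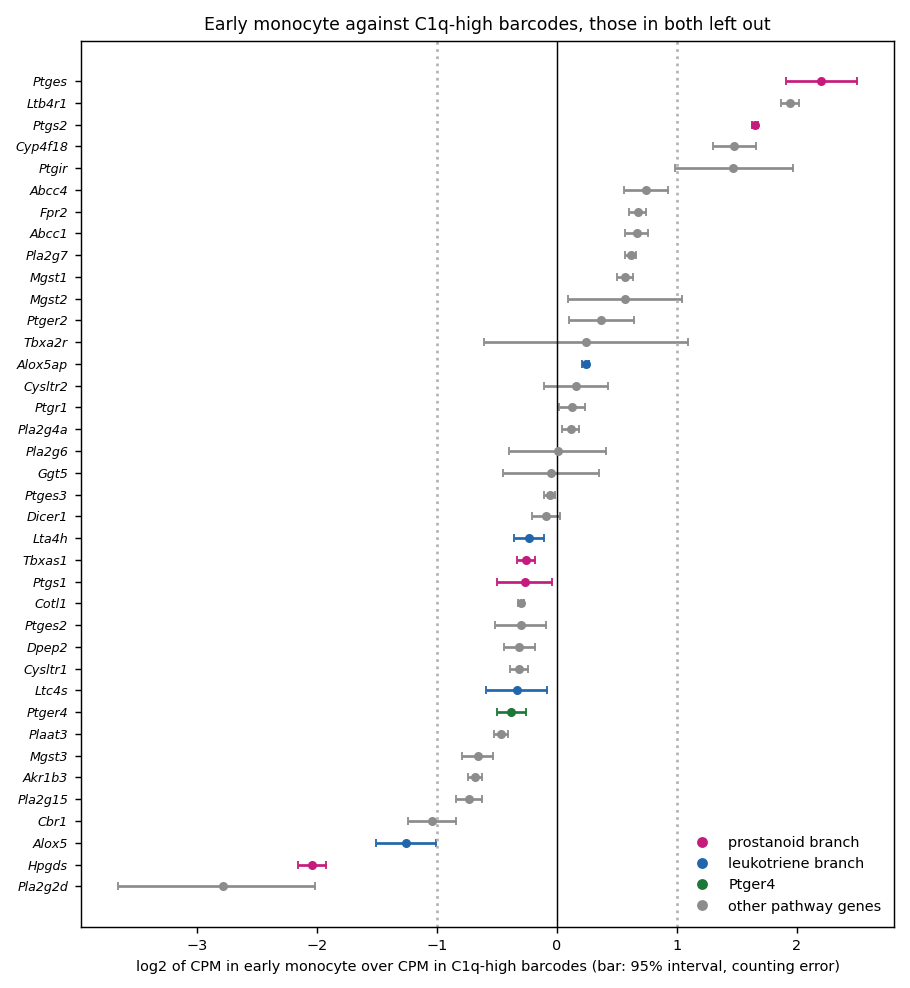
Log2 ratio of CPM in early monocyte over C1q-high barcodes, shared barcodes left out, with 95% intervals for counting error, for the members (colored by branch) and the other pathway genes (gray); dotted lines mark 2-fold. Ptges, Ltb4r1 and Ptgs2 lie at the top, and Hpgds (4.11-fold lower) and Alox5 are among the lowest.

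The other gates were set against C1q-high barcodes in the same way, with shared barcodes left out. These comparisons reuse the C1q-high barcodes and are not independent of each other. Against C1q-high barcodes the S100a9 gate had Ptgs2 at 1201 against 415 CPM and Hpgds at 29.5 against 76.5, with 2 members at least 2-fold higher (5.5% of genes were) and 2 lower (2.97%). For the Ly6c2 gate 2 were higher (8.27%) and 3 lower (3.77%), among them Ltc4s with 3.50 against 8.57 CPM (1.69-fold without suffix 5, where C1q-high barcodes stood at 5.13), and for the Mmp12 gate 2 were higher (5.47%) and only Hpgds lower (2.06%). In the Flt3 gate none of the members was 2-fold higher (8.39% of genes), Ptger4 coming closest at 61.5 against 31.7 CPM (1.94-fold, 6 of 6 suffixes), and Hpgds (20.9 against 76.8) and Alox5 were lower (5.35%), Alox5 by 1.87-fold without barcodes with lymphocyte transcripts. The Mcpt8 gate had Alox5 at 37.9 against 12.8 CPM (2.96-fold), higher in 6 of 6 suffixes. That ratio was 2.14-fold without suffix 6, 4.79-fold without suffix 4 and 13.8-fold without barcodes with lymphocyte transcripts. Ptges (11 UMIs) was 2.15-fold higher over all suffixes but in only 2 of 6 of them, and lower without suffix 4 (9% of genes were 2-fold higher), whereas Hpgds, Tbxas1, Ltc4s and Ptger4 were lower (18.4%), Ltc4s by 1.48-fold without barcodes with lymphocyte transcripts.

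Each gate was also set against all barcodes outside it. C1q-high barcodes had Hpgds 3.54-fold and Alox5 2.05-fold higher (2.14% of genes were 2-fold higher) and Ptgs2 2.22-fold and Ptges lower (6.84%), though Alox5 was under 2-fold without suffix 6 (1.89), 7 or 8 and without barcodes with lymphocyte transcripts (1.88). The Mcpt8 gate had Alox5 4.05-fold higher (6.09%) and 4 members lower (14.8%). Alox5 was 2.79-fold higher without suffix 6, 6.25-fold without suffix 4 and 12.8-fold without barcodes with lymphocyte transcripts. Of the 4 lower members Ptgs2 was under 2-fold without suffix 3, 4 or 8, Hpgds without 4 or 8 and Ptger4 without 4. Without barcodes with lymphocyte transcripts Ptgs2 was not lower (971 against 920 CPM), Hpgds (1.34-fold) and Ptger4 (1.49-fold) were under 2-fold, and Ltc4s rested on 1 UMI. The Ly6c2 gate had none higher (1.47%) and Alox5 and Ltc4s lower (0.894%). Without suffix 5 these were 1.72-fold and 1.52-fold, and both were also under 2-fold without suffix 6, as was Alox5 without 3 or 7. The Flt3 gate had none higher (4.8%) and Ptges lower (3.01%). In the S100a9 (0.853% in each direction), early monocyte (0.821% higher, 1.22% lower) and Mmp12 gates (0.406% higher, 0.666% lower) no member reached 2-fold either way.

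Exclusive barcodes pass 1 gate only, which removes overlap between the gates but not lymphocyte transcripts. In exclusive C1q-high barcodes Hpgds was at least 2-fold higher than in all other barcodes (0.975% of genes were) and Ptgs2 and Ptges were lower (8.16%), while Alox5 no longer reached 2-fold. Exclusive Ly6c2 barcodes had Ptges higher (2.95%; 1.52-fold without suffix 6) and Hpgds, Alox5 and Ltc4s lower (3.47%). Exclusive Flt3 barcodes had Ptger4 (79.1 CPM) and Ltc4s (13.4) higher (7.6%) and Ptgs2, Ptges and Hpgds lower (18%), though Ltc4s was under 2-fold without suffix 3, 4 (1.87) or 8 and without barcodes with lymphocyte transcripts (1.76), and Ptges without 5 (1.33), 7 or 8. Exclusive Mcpt8 barcodes had Alox5 higher (9.08%) and 6 members lower, where 36.6% of genes were, at a median depth of 5463 UMIs, Ltc4s being under 2-fold without suffix 4 or 5 (1.92). Without barcodes with lymphocyte transcripts Hpgds was 1.75-fold lower there, and Ptgs1 (9.47 against 9.04 CPM) and Ltc4s (9.47 against 7.65) were not lower. Exclusive early monocytes had none higher (1.1%) and only Hpgds lower (6.01%), and exclusive S100a9 (3.97% higher, 9.81% lower) and Mmp12 barcodes (1.69% and 4.65%) had no member 2-fold either way.

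Ptgs2 and Hpgds also ran in opposite directions along the C1q level itself, the quantity that defines the C1q-high gate. Barcodes with Csf1r were split by C1q UMIs per 10000 into under 10 (2665 barcodes), 10 to 30 (639), 30 to 60 (1027), 60 to 100 (1403) and 100 or more (1432). Ptgs2 stood at 1464, 800, 705, 519 and 385 CPM along these bins and was lower at every step in each of the 6 suffixes. Hpgds stood at 8.17, 24.9, 45.5, 65.3 and 88.1 CPM, 10.8-fold apart at the ends, and was higher at every step in each of the 6 suffixes. Within the first bin the suffixes of Hpgds ranged from 5.64 to 10.7 CPM and within the last from 80.9 to 99.2. Median depth differed too, from 9565 UMIs in the first bin to 19128 in the last, and its part was not tested.

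The other members divided along the same axis. Ptges stood at 17.0, 6.83, 4.19, 3.11 and 2.82 CPM and was lower in the last than in the first bin in 6 of 6 suffixes. Alox5 stood at 3.68, 6.58, 9.76, 14.1 and 11.6 CPM, higher in the last than in the first bin in 6 of 6. Tbxas1 (63.7 to 86.6) and Lta4h (24.0 to 29.8) were also higher in the last than in the first bin in 6 of 6 suffixes. Alox5ap (523 to 469) was lower in 6 of 6, though at 587 CPM in both end bins of suffix 5. All of these were within 1.5-fold and none was graded. Alox5ap stood at 523, 416, 422, 447 and 469 CPM, so it fell once and then rose. Tbxas1 fell to 55.6 CPM in the second bin, and Lta4h was highest in the middle bin (30.7). Ptgs1, Ltc4s and Ptger4 had no common direction, with 3, 4 and 3 of 6 suffixes higher. Of the receptors, Ltb4r1 stood at 192 CPM in the first and 47.2 in the last bin and Cysltr1, a cysteinyl leukotriene receptor, at 70.3 and 89.7.

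**Figure D3:**
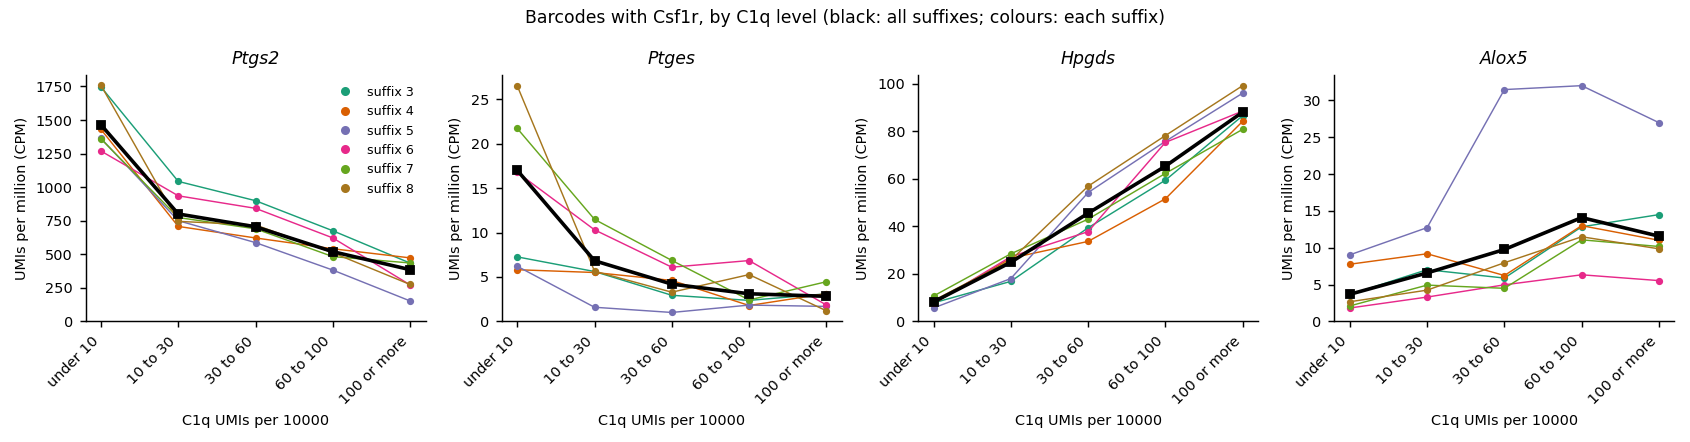
CPM (linear axis from 0) of Ptgs2, Ptges, Hpgds and Alox5 in Csf1r barcodes binned by C1q UMIs per 10000, for all suffixes (black) and each suffix (colors). Ptgs2 is at 1464 in the first and 385 in the last bin, and Hpgds at 8.17 and 88.1, with the same order in each suffix; the Alox5 line of suffix 5 runs above the others.

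Within Csf1r barcodes below the C1q-high threshold, barcodes were binned by Ptgs2 UMIs after thinning to 2000 UMIs, and the share with another member was read at the same depth. Of the 1133 barcodes with 4 or more Ptgs2 UMIs, 3.62% (2.61 to 4.88; 0 to 6.13 over suffixes) had Ptges, against 1.27% of the 1419 with 1 to 3 and 1.69% (1.13 to 2.41) of the 1720 without Ptgs2, so the share was not graded. Ptger4 was found in 8.21% (6.68 to 9.96), 5.57% and 4.94% (3.97 to 6.07) of these bins. Hpgds went the other way, with 2.29%, 3.81% and 5.12%, as did Alox5, with 0.265% (3 barcodes), 0.775% and 1.22%. Alox5ap was at 60.5%, 58.7% and 61.2%, with intervals that overlap. Barcodes of a library share free RNA and depth, so these shares are a description. C1q was not held level below the threshold. Over the first bins, up to 60 C1q UMIs per 10000, Ptgs2 fell from 1464 to 705 CPM. Hpgds rose there from 8.17 to 45.5 and Alox5 from 3.68 to 9.76, and the part of C1q was not tested.

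The 2 branches were summed to describe their balance. UMIs per gene are not comparable in molecules per length, so the leukotriene share of branch UMIs mainly sets Alox5ap, 90.2% of leukotriene UMIs in C1q-high barcodes, against Ptgs2, 73.4% of prostanoid UMIs there. This share was 30.9% (30.4 to 31.4) in the S100a9 gate, 32.1% in early monocytes, 32.3% in the Ly6c2 gate, 33.6% in the Mmp12 gate, 43.7% in the Mcpt8 gate, 45.1% (44.7 to 45.4) in C1q-high and 46.2% in Flt3 barcodes. The S100a9 gate lay 14.2 percentage points below C1q-high barcodes (13.6 to 14.8), and it was the lower of the pair in each suffix, with 30.3, 35.2, 36.1, 24.5, 31.6 and 34.0% against 42.1, 42.1, 55.8, 40.7, 43.7 and 48.6%.

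The prostanoid sum differed more between gates than the leukotriene sum. Leukotriene genes stood at 490 CPM in the S100a9 gate, 556 in early monocytes and 507 in C1q-high barcodes, whereas prostanoid genes stood at 1096, 1176 and 618 CPM. Inside the prostanoid sum Hpgds made up 12.4% of UMIs in C1q-high and 2.88% in early monocyte barcodes, and Ptgs2 89.9% in early monocytes. Among exclusive barcodes the leukotriene share reached 49.1% in C1q-high, 59.0% in Flt3 and 67.3% (61.2 to 73.1) in Mcpt8 barcodes and 26.2% in the S100a9 gate. The exclusive Mcpt8 share came from 39 barcodes and ran from 45.2% (suffix 5) to 90.9% (suffix 3). Of its 82 prostanoid UMIs, 57 came from suffix 5.

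**Figure D4:**
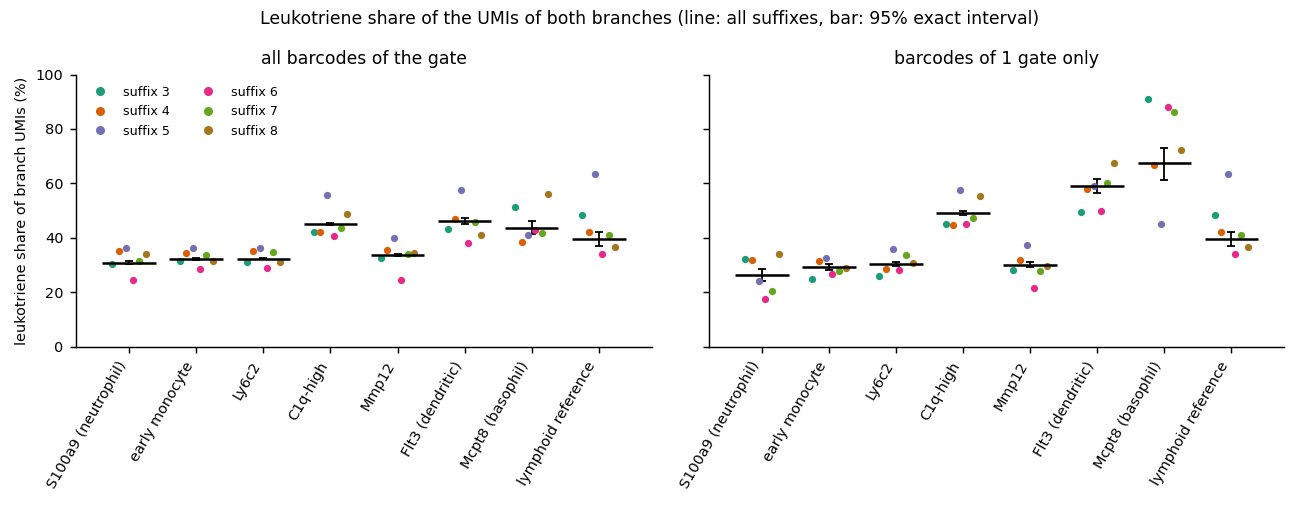
Share of prostanoid and leukotriene branch UMIs that belong to Alox5, Alox5ap, Ltc4s and Lta4h (%, axis from 0 to 100), for all barcodes of each gate (left) and those of 1 gate only (right). Lines are all suffixes with 95% exact intervals and points the suffixes; C1q-high (45.1%) and Flt3 (46.2%) barcodes sit above the S100a9, early monocyte, Ly6c2 and Mmp12 gates (30.9 to 33.6%).

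The receptors were arranged differently from the enzymes. The summed prostanoid receptors (8 genes) stood at 70.3 CPM in the Flt3 gate and between 31.1 and 40.7 in the other 6 classes, with 30.7 in the lymphoid reference, and Ptger4 made up most of the Flt3 sum. Leukotriene receptors (4 genes) were highest in early monocytes at 216 CPM, followed by the Ly6c2 gate at 193, the Mmp12 gate at 174, the S100a9 gate at 172, C1q-high at 143, Mcpt8 at 112 and Flt3 barcodes at 109. Within them Ltb4r1 was highest in early monocytes (134 CPM, C1q-high 49.6), Cysltr1 in C1q-high barcodes (87.9) and Cysltr2 in the lymphoid reference (38.3). Ptger2, the other receptor that couples prostaglandin E2 to cyclic AMP, was low in C1q-high (4.81 CPM) and early monocyte barcodes (5.76). Ptgdr and Oxgr1 were not analysed here.

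Small sets of granule-bearing cells carried a separate combination, again in sets chosen after values were seen. The 33 barcodes with at least 3 UMIs of Cpa3, a mast cell and basophil protease, had Alox5 at 144 CPM (95.8 to 208; 28 UMIs) and Hpgds at 149 (100 to 215; 29 UMIs), both above the other barcodes in 6 of 6 suffixes, with Alox5ap at 407. Their median depth was 3429 UMIs, and 25 of them had no Mcpt8. The 57 Mcpt8 barcodes without Csf1r had Alox5 at 72.5 CPM (52.2 to 97.9) and Cyp4f18 at 224, both higher in 6 of 6 suffixes, but only 3 Hpgds UMIs and 0 of Tbxas1. Ptger3, an inhibitory prostaglandin E2 receptor, gave 14 UMIs in the latter set (24.2 CPM) and 7 in the former (36.1 CPM).

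Macrophages with Cd163, a scavenger receptor, were another such set. The 510 barcodes with at least 2 Cd163 UMIs, 213 of them from suffix 5, had Ptgs1 at 21.7 CPM (18.8 to 25.0; 6 of 6 suffixes above the other barcodes), Alox5 at 19.3 and Ltc4s at 22.0 (5 of 6 each). In the 347 barcodes with at least 5 Retnla UMIs, 290 of them from suffix 5, Ptgs1 was at 38.4, Ltc4s at 43.7 and Alox5 at 20.1 CPM. Without suffix 5 the Cd163 set (297 barcodes) stood at 16.8 CPM for Ptgs1, 15.5 for Alox5 and 10.4 for Ltc4s, against 6.58, 7.04 and 4.40 in the other barcodes, and the Retnla set (57 barcodes) at 29.0, 10.5 and 16.7. These members were also the ones that set suffix 5 apart.

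Between libraries, Ptgs1, Alox5 and Ltc4s were at least 2-fold higher in suffix 5 than in the other suffixes (2.31% of genes were) and Ptges was lower (3.01%). Over all barcodes Alox5 stood at 9.8, 9.9, 22.3, 3.9, 7.0 and 7.1 CPM in suffixes 3 to 8 and Ltc4s at 6.9, 4.8, 20.9, 3.5, 3.5 and 5.8. Ptges stood at 3.7, 3.6, 2.8, 13.4, 9.2 and 12.1 CPM, low in suffixes 3 to 5 and high in 6 to 8. Ptges was at least 2-fold lower in suffix 3 (1.59% of genes) and suffix 4 (1.46%), Alox5 and Ltc4s in suffix 6 (3.49%), Ltc4s in suffix 7 (1.19%) and Ptgs1 in suffix 8 (1.35%). No member was 2-fold higher in these (0.349%, 0.609%, 2.06%, 0.593% and 0.163% of genes in suffixes 3, 4, 6, 7 and 8). The suffixes differ in the classes they hold, with 174 C1q-high barcodes of 1328 in suffix 6 and 805 of 1620 in suffix 4, and treatment and library cannot be told apart here.

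**Figure D5:**
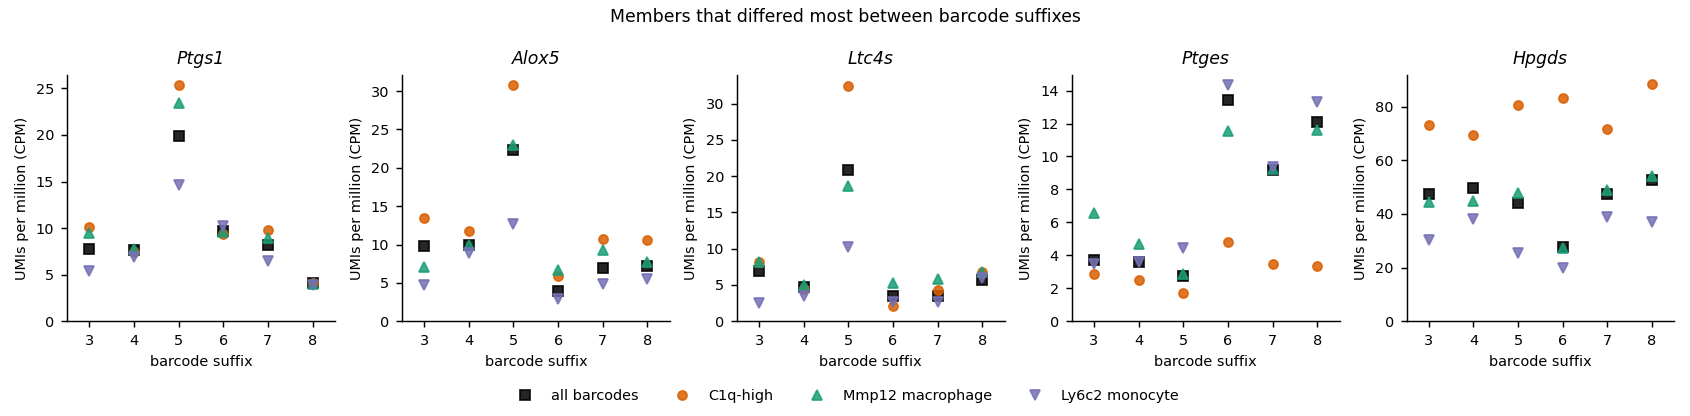
CPM (linear axis from 0) of the 5 members that differed most between suffixes, for all barcodes and 3 gates. In suffix 5, Ptgs1, Alox5 and Ltc4s are highest in all barcodes and in the plotted gates, and Hpgds of suffix 6 is low except in C1q-high barcodes.

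Finally, each member was matched with the genes whose levels followed it most closely over 37 pairs of class and suffix with at least 20 barcodes (Pearson's r of log2(CPM + 10), 9917 genes). These pairs share barcodes, libraries and depth, so r is a description. Ptgs2 went with Cdkn1a and Slc7a11 (both 0.93), Hpgds with Siglec1 (0.91), Alox5ap with Stx3 (0.92), Ptger4 with Taok3 (0.89), Ptges with Prdx6 (0.80), Alox5 with Iars (0.85), Ltc4s with Fam192a (0.86), Tbxas1 with Itsn1 (0.83), Ptgs1 with Prkab1 (0.79) and Lta4h with Znrf3 (0.75). Between members r was 0.50 for Ptgs2 and Ptges, 0.58 for Alox5 with Ptgs1 and with Ltc4s, -0.22 for Ptgs2 and Hpgds, and -0.57 for Ptges and Ptger4.

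The members lie in the GENCODE M21 annotation (GRCm38) at chr2:36230426-36252272 (Ptgs1, plus strand), chr1:150100031-150108227 (Ptgs2, plus), chr2:30889471-30929863 (Ptges, minus), chr6:65117293-65144908 (Hpgds, minus), chr6:38875404-39084585 (Tbxas1, plus), chr6:116410077-116461178 (Alox5, minus), chr5:149264767-149288153 (Alox5ap, plus), chr11:50236461-50238616 (Ltc4s, minus), chr10:93453411-93484875 (Lta4h, plus) and chr15:5206661-5244187 (Ptger4, minus). Genes on the opposite strand that are also in the matrix overlap Tbxas1 (Hipk2 and 1700025N23Rik), Alox5ap (Gm19719), Ltc4s (Gm26542) and Ptger4 (Ttc33). Whether counting used the strand is not given in the sources used here, so UMIs in these overlaps may be uncertain.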

How the data were processed

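CD45-enriched cells of CT26 tumors were profiled by droplet 3′ sequencing. The authors deposited raw UMI counts of 20649 genes in 9235 barcodes, all tumors in 1 table. The submitters' processing notes name mm10, Cell Ranger 1.2, Seurat 3.1.5 and R 4.0.1, without stating their roles. Ambient RNA was not removed, and doublets were not called here; their treatment by the authors for this table is not given in the sources used here.

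Gates were applied to raw UMIs, and counts were summed per class and divided by class UMIs. The 10 members were fixed by name, and genes most alike were ranked by Pearson's r. Members and lists were chosen with earlier results of these data known. A gene was called at a 2-fold difference in CPM if it had at least 100 UMIs. Since the matrix is 1 pooled sample, no difference between classes was tested, and the planned treatment comparison was not made. Dixon's criterion served only to flag suffixes far from the others. Shares were thinned to 2000 UMIs (seed 1; 1000 and 5000 as alternatives), leaving out shallower barcodes. The 2-fold call was tried on simulated pooled counts with 200 genes set 4-fold higher. That simulation held no differences between suffixes, no gate overlap and no free RNA, and the other steps were not simulated. Python 3.11.15, numpy 2.4.6, scipy 1.17.1 and matplotlib 3.10.9 were used.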

Additional observations from a re-analysis of the deposited data

Results flagged for a closer look

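Of 70 groups of 6 suffixes (10 members in all barcodes and 6 gates), 12 had 1 suffix far from the others by Dixon's criterion, which chance meets in about 1 in 20 groups. Suffix 5 was high for 3 members. Ptgs1 stood at 19.8 CPM over all barcodes (nearest other suffix 9.74), 25.4 in C1q-high barcodes (10.1) and 23.5 in the Mmp12 gate (9.56). Alox5 stood at 22.3 CPM over all barcodes (9.93), 30.8 in C1q-high (13.4) and 22.9 in the Mmp12 gate (9.94). Ltc4s stood at 20.9 CPM over all barcodes (6.87), 32.5 in C1q-high (8.23) and 18.7 in the Mmp12 gate (8.18).

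Suffix 6 was low for Hpgds, at 27.7 CPM over all barcodes (nearest 44.1), 28.5 in the S100a9 gate (50.8) and 27.1 in the Mmp12 gate (44.6). These groups share barcodes and are not independent. The cause was not tested.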

How the results depend on the processing

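The leukotriene share of the S100a9 gate stayed below that of C1q-high barcodes under each alternative run, by -14.2 percentage points as reported, -22.9 with exclusive barcodes, -16.9 with stricter gates, -15.0 without barcodes with lymphocyte transcripts, -18.0 with each barcode weighing the same, -15.5 without shallow and deepest barcodes, and from -15.9 (without suffix 4) to -12.2 (without suffix 6) with 1 suffix left out. Leaving out Csf1r barcodes in the S100a9, Flt3 and Mcpt8 gates, an alternative chosen after seeing the data (as was leaving suffix 5 out of the Cd163 and Retnla sets), gave -19.7. There 6 of the 10 members kept their highest class, against 7 to 10 in the other alternatives, and the log2 ratio of Ptgs2 in early monocytes over the S100a9 gate turned from 0.13 to -0.42. Hpgds and Tbxas1 (C1q-high), Alox5 (Mcpt8) and Ptger4 (Flt3) kept theirs in all settings run. Alox5 in Mcpt8 over C1q-high barcodes moved from 1.47 on the log2 scale to 0.26 with each suffix weighing the same, where only suffix 4 had the 20 Mcpt8 barcodes needed, and to 3.22 without lymphocyte transcripts and 3.18 with each barcode weighing the same. Its share of Mcpt8 barcodes moved from 16.9% at 2000 UMIs to 7.02% of 57 barcodes at 5000, where C1q-high barcodes stood at 5.91%. Alox5ap turned from lower in the Mcpt8 gate (280 CPM) to highest there without lymphocyte transcripts (748) and with each barcode weighing the same (716). Without Csf1r barcodes Ptger4 in the Flt3 gate moved from 55.2 to 99.6 CPM. The cause of these shifts was not tested. Depth limits Ptgs1, Ptges, Ltc4s and Alox5 most, with 922 to 1290 UMIs each. No paired analysis was possible because barcode suffixes match no tumor label, so the treatment comparison and its alternatives were not run.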
